A study of Drosophila melanogaster with 6 samples.

Results

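The genes described here are 7 Drosophila regulators of transcription and chromatin: odd, amos, Sox21b, woc, simj, Atxn7 and Tfb1. They were picked by name because their ratios stood far from 0 on arrays of ovary RNA, so those ovary ratios chose them and are given as a description without a test. All 7 were found among the 2377 genes of the ovary array design, each with 1 pair of neighbouring spots, 14 spots in all. On the separate array design used for cultured cells, which named 6793 genes, 3 of the 7 had spots (odd, amos and Atxn7, 8 spots) and 4 had none.

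The ovary RNA came from flies given methotrexate at 5 ppm for 5 days and from flies given 0 ppm, and the 2 RNAs were hybridised together on each of 2 spotted cDNA arrays. Methotrexate is an antifolate drug that inhibits dihydrofolate reductase. S3 cells, an established Drosophila cell line, received methotrexate at 5.2e-08 M or none for 4 days, and 4 arrays compared their RNAs. Genotype, age and number of flies are not given in the sources used here, nor is it said that the arrays hold separate flies or cultures, so the spread between arrays may be technical. Each value is the log ratio of the 2 channels of a spot. The base of the logarithm is not stated and was taken as 2, and the channel in the numerator is not stated, so a sign carries no direction relative to methotrexate. The labels put treated ovary RNA in the Cy5 dye on both arrays, whereas the series text speaks of swapped dyes. If the labels hold, an effect of dye and an effect of the drug cannot be told apart on the ovary arrays. Signal levels were not used here, so no ratio can be set against the brightness of its spot, and the number of arrays limits the precision.

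The 7 genes act at different steps of gene control. odd encodes a zinc finger repressor of the pair-rule class that helps to divide the embryo into segments. amos encodes a proneural basic helix-loop-helix factor that commits cells to become olfactory sense organs, and Sox21b encodes an HMG-box factor of the SoxB family. woc encodes a zinc finger protein that binds chromatin together with heterochromatin protein 1 isoforms and protects telomeres. simj encodes the p66 subunit of NuRD, a complex that joins nucleosome remodelling to histone deacetylation. Atxn7 encodes the fly ataxin-7, a subunit of the histone deubiquitinase module of the coactivator SAGA. Tfb1 encodes a core subunit of TFIIH, the general factor that opens promoters for RNA polymerase II and also serves nucleotide excision repair.

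With each array centred on its own median, 4 of the genes were positive on both ovary arrays and 3 were negative on both. The complex subunits and the Sox gene made up the positive side, and odd, amos and woc the negative side. simj had gene ratios of 2.20 and 1.77 on arrays 1 and 2, a mean log2 ratio of 1.98 ± 0.30 (SD, n = 2), which is a 3.95-fold difference between the channels. Tfb1 had ratios of 2.01 and 1.62, with a mean of 1.82 ± 0.28 (SD, n = 2). Atxn7 had ratios of 2.21 and 1.40, with a mean of 1.81 ± 0.57 (SD, n = 2). Each of these subunit genes was thus farther from 0 on array 1. Sox21b followed the same order, with ratios of 1.89 and 1.54 and a mean of 1.72 ± 0.25 (SD, n = 2). Array 1 had the wider scale, with an SD among spots of 0.89 against 0.69 on array 2. With the arrays set to equal scale, simj was at 1.82 and 2.13, Tfb1 at 1.67 and 1.95 and Sox21b at 1.57 and 1.85. These genes were then farther from 0 on array 2, and only Atxn7, at 1.84 and 1.69, kept the order. The 4 positive genes overlapped one another in their ranges over the arrays, so their order in size was not resolved.

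The negative genes spread more widely between the arrays. odd had ratios of -2.18 on array 1 and -0.97 on array 2, with a mean of -1.57 ± 0.86 (SD, n = 2). woc ran the other way, with ratios of -0.66 on array 1 and -2.41 on array 2 and a mean of -1.54 ± 1.23 (SD, n = 2). amos alone was similar on both arrays, with ratios of -1.43 and -1.63 and a mean of -1.53 ± 0.14 (SD, n = 2). With the arrays set to equal scale it was less so, at -1.19 and -1.96. The means of the 3 genes differed from one another by less than the SD of any of them, so no order among them was resolved.

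Set among all 2377 genes, simj had the 4th highest mean, Tfb1 the 11th, Atxn7 the 12th and Sox21b the 23rd, while odd, woc and amos had the 4th, 5th and 6th lowest. These ranks differed between the arrays for some genes. Atxn7 was 5th from the top on array 1 and 54th on array 2. odd was 3rd from the bottom on array 1 and 90th on array 2, whereas woc was 631st from the bottom on array 1 and the very lowest of all genes on array 2. Across all genes 95% of the means lay between -1.03 and 1.44, and 326 means exceeded 1 in size.

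The 2 spots of a pair show how well each ratio repeated between neighbouring spots. They share a print block and row, so a shift common to that place would not show. Tfb1 was nearly the same in both spots, at 2.02 and 2.01 on array 1 and at 1.61 and 1.63 on array 2. Atxn7 was as close, at 2.21 and 2.22 on array 1 and at 1.39 and 1.41 on array 2. For these genes more than 95% of the 2833 named spot pairs of the ovary design differed by as much or more. simj had spot values of 2.23 and 2.16 on array 1 and of 1.85 and 1.69 on array 2. Sox21b had spot values of 1.98 and 1.80 on array 1 and of 1.62 and 1.47 on array 2. All 4 positive genes therefore repeated within an array to closer than the median pair of the design, which differed by 0.23 on array 1 and 0.22 on array 2.

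The pairs of the negative genes agreed less well. The spots of woc stood at -0.22 and -1.11 on array 1 and at -1.45 and -3.37 on array 2. The difference of 1.92 on array 2 was matched or passed by only 0.141% of pairs. The spots of amos stood at -1.07 and -1.79 on array 1 and at -0.78 and -2.47 on array 2, where 0.212% of pairs differed by as much as 1.69. So the close means of amos on the 2 arrays were each averaged from spots that did not agree, and in both woc and amos the second spot of the pair was the more negative on both arrays. odd had spots at -2.52 and -1.85 on array 1 and at -0.83 and -1.11 on array 2, and 8.01% and 40.0% of pairs differed by as much. Whether weak spots lie behind these differences was not tested.

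**Figure D1:**
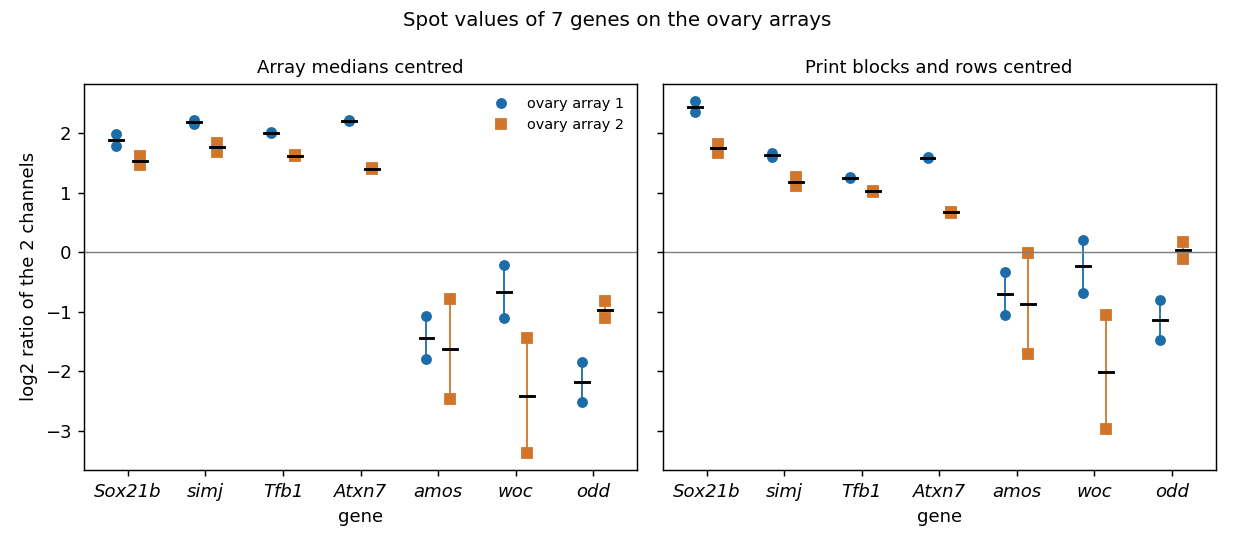
Log2 ratios of each spot of the 7 genes on ovary array 1 (circles) and ovary array 2 (squares), with array medians centred (left) or print blocks and rows centred (right). The line joins the 2 spots of a gene and the black bar is their mean. Left, all 28 spot values lie on the side of their gene's mean. Right, 26 do, and the mean of odd on array 2 is 0.03.

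**Figure D2:**
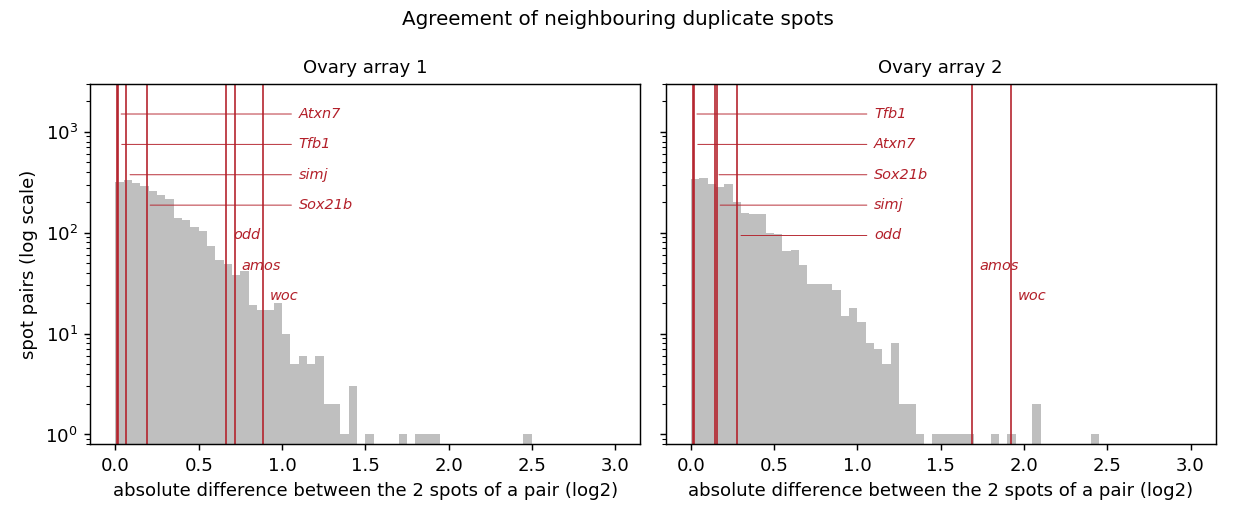
Histogram of the absolute log2 difference between the neighbouring spots of the 2833 named pairs on each ovary array, with a logarithmic count axis. Red lines mark the 7 genes: amos at 1.69 and woc at 1.92 stand in the far tail on array 2, and Tfb1 and Atxn7 lie next to 0 on both arrays.

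Ratios on the ovary arrays also varied with the place where a gene was printed. The ovary design has 32 print blocks of 22 rows with 24 spots each, a layout read from the period of the values and not stated in the labels. Of the variance among spots, 20.8% on array 1 and 15.9% on array 2 went with the row number. The medians of the 22 row numbers ran from -0.75 to 1.02 on array 1 and from -0.46 to 0.57 on array 2. amos lies in row 21, whose median was the lowest of all rows on both arrays, at -0.75 and -0.46. odd and woc share row 17, in different blocks, with row medians of -0.47 and -0.26. simj and Atxn7 share row 15, again in different blocks, with medians of 0.60 and 0.48, among the 3 highest. Tfb1 lies in row 12, with medians of 0.03 and 0.13. Sox21b lies against its row, since row 9 had medians of -0.35 and -0.12 while the gene was positive. For 5 of the 7 genes, then, the row median had the sign of the gene and was at least 0.26 in size on both arrays. Whether the rows differ because of printing or because of the clones they hold was not tested.

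**Figure D3:**
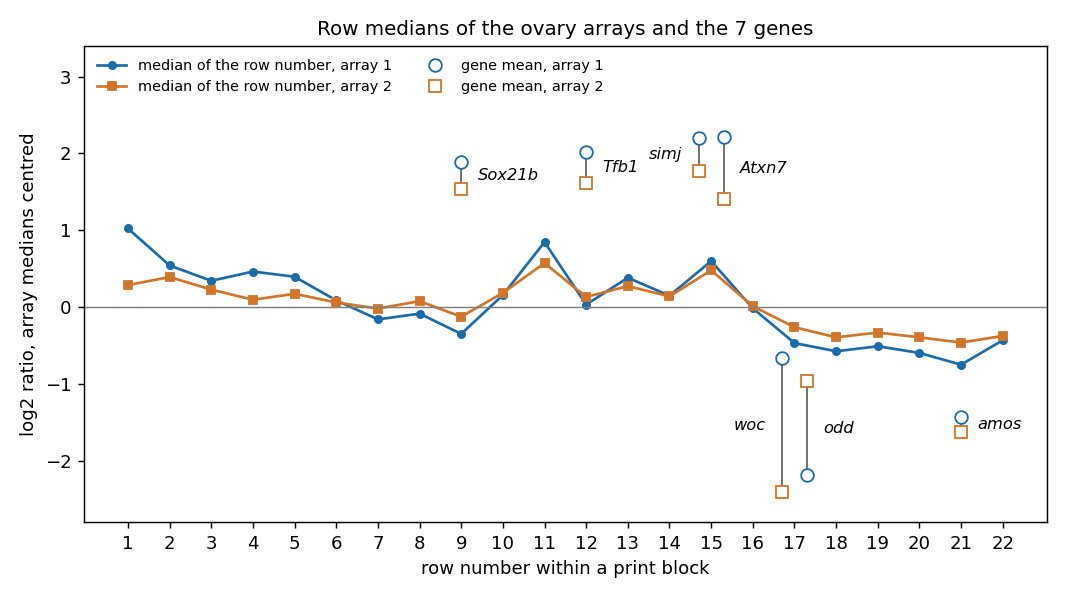
Medians of the 22 row numbers over all print blocks (joined points) and gene means of the 7 genes (open symbols, joined between arrays) on ovary arrays 1 and 2, as log2 ratios with array medians centred. amos lies in the row with the lowest median, simj and Atxn7 lie in a high row, and Sox21b lies above a row of negative median.

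Centring each print block and then each row of 24 spots within its block moved the genes by different amounts. Sox21b moved away from 0, to ratios of 2.45 and 1.75 and a mean of 2.10 ± 0.49 (SD, n = 2), the 3rd highest of all genes. simj was at 1.63 and 1.19 with a mean of 1.41 ± 0.31 (SD, n = 2), the 32nd highest. Tfb1 was at 1.25 and 1.03 with a mean of 1.14 ± 0.16 (SD, n = 2), the 84th highest. Atxn7 was at 1.59 and 0.67 with a mean of 1.13 ± 0.65 (SD, n = 2), the 87th highest. The 4 positive genes stayed positive on both arrays, and their means then lay between 1.13 and 2.10.

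On the negative side the same centring left less. woc was at -0.24 and -2.01 with a mean of -1.12 ± 1.26 (SD, n = 2), the 51st lowest of all genes. amos was at -0.70 and -0.86 with a mean of -0.78 ± 0.12 (SD, n = 2), the 158th lowest. odd was at -1.14 on array 1 and 0.03 on array 2, with a mean of -0.55 ± 0.83 (SD, n = 2), the 288th lowest, so its negative value rested on array 1. Within its own row of 24 spots, odd took the lowest place on array 1 with one spot and the 21st from the top with the other, but only the 8th and 15th on array 2. amos had one spot lowest of its row on both arrays, while its other spot was 19th and 13th from the top. Both spots of Sox21b, by contrast, were the 2 highest of their row on both arrays, and those of Tfb1 were too.

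The row of 24 spots holds the gene's own pair, and a row number pooled over the 32 blocks holds 768 spots. With blocks centred and then row numbers pooled over blocks, Sox21b was at 1.93, Tfb1 at 1.70, Atxn7 at 1.41 and simj at 1.39. In the same setting woc was at -1.16, odd at -1.02 and amos at -0.76. Tfb1 and odd were the genes for which the choice between the 2 kinds of row mattered most, since the medians of their own rows of 24 spots, which on array 1 were 0.76 for Tfb1 and -1.05 for odd, lay far from those of their row numbers. With blocks alone centred all 7 kept their signs on both arrays, at means from -1.51 for woc to 1.95 for Atxn7.

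**Figure D4:**
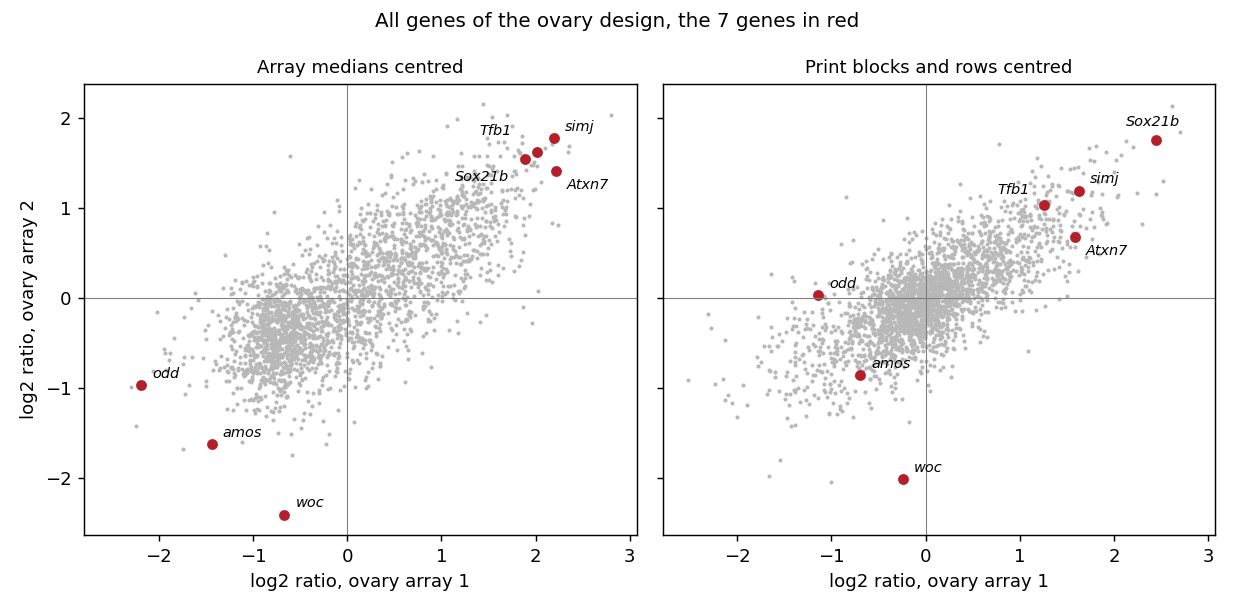
Log2 ratios of all 2377 genes on ovary array 1 (horizontal) and ovary array 2 (vertical), with array medians centred (left) or print blocks and rows centred (right). The 7 genes are in red. Left, they lie at the edges of the cloud. Right, Sox21b stays at the edge, simj, Tfb1 and Atxn7 move inward, and odd lies on the line of 0 for array 2.

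For each of the 7, the nearest of the 2376 other genes were found by the Euclidean distance between ratios on the 2 ovary arrays after block and row centring. A likeness over so few arrays is a description only. Nearest to Sox21b were NFAT, which encodes a transcription factor, at 2.21 and 1.68, and kra, a translation regulator, at 2.70 and 1.84. Nearest to simj were Uba2, which encodes a subunit of the SUMO-activating enzyme, at 1.57 and 1.16, and phyl, an adaptor in photoreceptor fate, at 1.55 and 1.18. Nearest to Tfb1 were heph, the polypyrimidine tract-binding protein gene, at 1.28 and 1.08, and the calcium sensor gene Stim at 1.31 and 1.05. Atxn7 was closest to Alg2 and CG2519, amos to CG8159 and CG6425, and odd to the ceramidase gene CDase and CG13891, all at a distance of 0.061 or less. The distances were larger for Sox21b, at 0.25 to NFAT and 0.27 to kra. They were largest for woc, at 0.63 to Stlk and 0.77 to gol.

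The complexes and families to which the 7 genes belong were thinly represented on the ovary arrays. Of the lists of partners, 24 other genes were measured, and limma called 3 of them positive and 5 negative at an adjusted p under 0.05, leaving 16 not called. That is 33.3%, beside 39.0% of all 2377 genes (926 genes, 20.9% positive and 18.0% negative). Their median was -0.02, against -0.14 for all genes. After block and row centring 4 were called positive and 1 negative, or 20.8%, beside 25.9% of all genes, with a median of 0.24 against -0.01. In neither setting was the called share of the partners above that of all genes. With array medians centred, limma gave all ovary genes a common spread. Its p there followed the size of the mean, not the SD printed beside it.

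Of the other TFIIH subunits 3 were measured beside Tfb1, and 0 were called positive and 1 negative. Of all genes 20.9% were called positive and 18.0% negative. Cdk7, the kinase of TFIIH, was at -0.69 and -0.81 and averaged -0.75 ± 0.09 (SD, n = 2; limma adjusted p = 0.0225), on the side opposite to Tfb1. After row centring it was at 0.04 and -0.58 and was not called (limma adjusted p = 0.401). mrn, the fly gene for the p52 subunit, was at 0.55 ± 0.44 and Ssl1 at -0.23 ± 0.87 (SD, n = 2 each), neither called. None of these 3 subunit genes was called on the side of Tfb1, and so few genes cannot be told from the share over all genes.

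Of 5 other general factors of RNA polymerase II, 1 was called on each side, near the 20.9% positive and 18.0% negative of all genes. TfIIS, an elongation factor, was at 1.25 and 0.82 averaging 1.03 ± 0.30 (SD, n = 2; limma adjusted p = 0.00150), and was called after row centring too, at 1.37 (limma adjusted p = 0.00181). Taf3, a subunit of the promoter-binding factor TFIID, was at -0.49 and -1.44 averaging -0.97 ± 0.67 (SD, n = 2; limma adjusted p = 0.00309), and was called after row centring as well, at -1.12 (limma adjusted p = 0.00178). TfIIB at -0.17 and TfIIEbeta at -0.22 were not called. Another TFIID subunit gene, Taf13, also named after its values were seen, was at 0.09 and was called after row centring, at 0.82 (limma adjusted p = 0.00943). These general factors lay on both sides, as the 24 partners did.

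Beside Atxn7, 3 SAGA genes were measured and 1 was called positive, against 20.9% of all genes. Ada3, of the acetyltransferase module, was at 0.65 and 0.82 averaging 0.73 ± 0.12 (SD, n = 2; limma adjusted p = 0.0253), and was near 0 after row centring at -0.06 (limma adjusted p = 0.851). Sf3b3 at 0.42 and Ada2b at 0.34 were not called. Beside simj, 2 NuRD genes were measured and 1 was called positive, against the same 20.9% of all genes. MTA1-like, a core subunit, was at 1.03 and 0.74 averaging 0.89 ± 0.20 (SD, n = 2; limma adjusted p = 0.00673), but at 0.26 after row centring (limma adjusted p = 0.393). CDK2AP1 was at 0.58 and was not called, and it was at -0.49 after row centring. No measured partner of simj or Atxn7 was called in both settings.

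Of 6 segmentation genes measured beside odd, 0 were called positive and 1 negative, near the 18.0% of all genes called negative. Their median was -0.47, against -0.14 for all genes. slp2, a forkhead factor of segmentation, was at -0.67 and -0.99 averaging -0.83 ± 0.22 (SD, n = 2; limma adjusted p = 0.0117). prd and Kr were both at -0.61 and not called, at limma adjusted p of 0.0621 and 0.0625. After row centring the median of the 6 was 0.17, against -0.01 for all genes, with slp2 at -0.23, prd at 0.00 and Kr at 0.03, none of these 3 called. The gap gene kni, named after its values were seen, was then called on the positive side, at 0.84 (limma adjusted p = 0.0217), and had been at 0.09 without row centring. Sox102F, the other Sox gene measured, was at 0.56 ± 0.12 (SD, n = 2) and not called (limma adjusted p = 0.0904). No other gene of the proneural or the heterochromatin protein 1 list was measured on the ovary design.

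The S3 arrays did not enter the choice of the genes and give values independent of it. Neither labels nor values settle the sign of S3 array 2, because the treated RNA carried the other dye there, and means are given with the sign as deposited and turned. Neighbouring S3 spots agreed poorly, with pair correlations from 0.292 to 0.454, against 0.903 and 0.841 on ovary arrays 1 and 2. With array medians centred, Atxn7 had ratios of 0.12, 0.48, 0.19 and 0.29 on S3 arrays 1 to 4. All were on the positive side as deposited, and their mean was 0.27 ± 0.15 (SD, n = 4; limma adjusted p = 0.863, unadjusted p = 0.216, 95% interval from -0.18 to 0.72). With array 2 turned the mean was 0.03 ± 0.35 (SD, n = 4; limma adjusted p = 0.982). On array 1 its spots stood on opposite sides of 0, at -0.24 and 0.49.

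amos had S3 ratios of 0.26, -0.12, -0.11 and 0.44, so the arrays were divided in sign. Its mean was 0.12 ± 0.28 (SD, n = 4; limma adjusted p = 0.946, unadjusted p = 0.595, 95% interval from -0.35 to 0.59). With array 2 turned it was 0.18 ± 0.23 (SD, n = 4; limma adjusted p = 0.834).

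odd was printed in 2 places on the S3 design, and the places did not agree. Its gene ratios were -0.22, -0.01, -0.08 and -0.44 on S3 arrays 1 to 4, and averaged -0.19 ± 0.19 (SD, n = 4; limma adjusted p = 0.922, unadjusted p = 0.387, 95% interval from -0.65 to 0.27). With array 2 turned the mean was -0.18 ± 0.20 (SD, n = 4; limma adjusted p = 0.825). The pair in print block 26 averaged -0.24, -0.56, 0.02 and -1.32 on the 4 arrays. The pair in print block 32 averaged -0.20, 0.54, -0.18 and 0.44. The pair means were of opposite sign on arrays 2 and 4, and on array 3 too, where the pair in block 26 was near 0. On arrays 2 and 4 the spots within each pair lay within 0.17 of each other. The medians of the blocks themselves were -0.11 and 0.54 on array 2, so on that array part of the gap is shared with the block. On array 4 the block medians were 0.08 and 0.11, and the gap remained with blocks centred, at spot values of -1.31 and -1.48 against 0.40 and 0.26. On arrays 2 and 4 the gene mean of odd thus averages spots that differed by more than the SD between arrays.

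**Figure D5:**
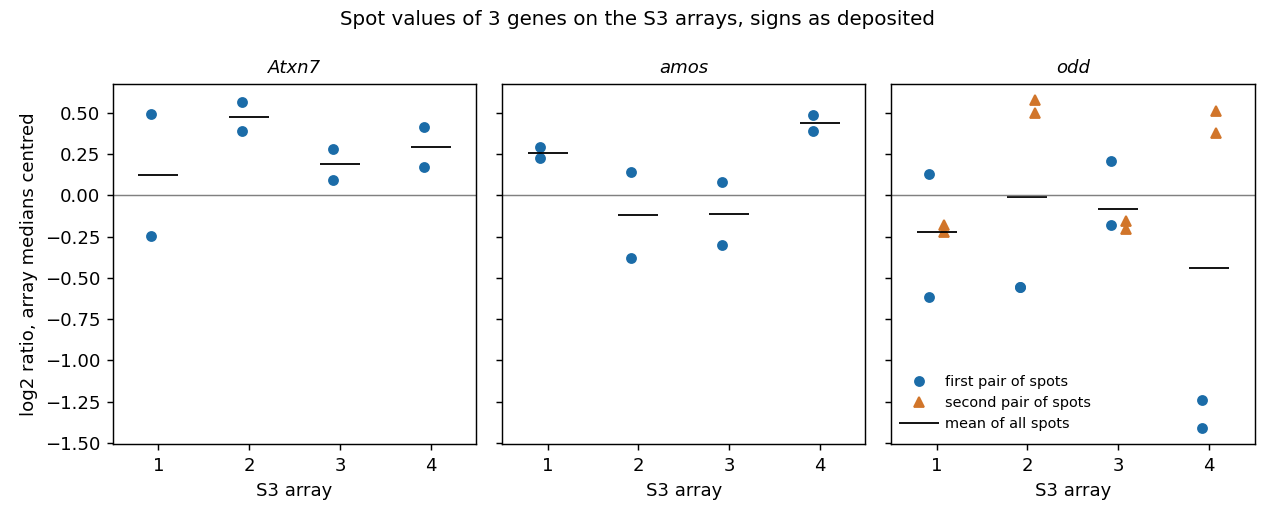
Log2 ratios of each spot of Atxn7, amos and odd on S3 arrays 1 to 4, with array medians centred and signs as deposited. Circles are the first pair of spots, triangles the second pair of odd, and black bars the mean of all spots. For odd on arrays 2 and 4 the pairs lie on opposite sides of 0.

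Centring the S3 print blocks changed the gene means little. Atxn7 was then at 0.27 ± 0.15, amos at 0.08 ± 0.25 and odd at -0.22 ± 0.22 (SD, n = 4 each). The adjusted p from limma were 0.611, 0.896 and 0.679 in that order. Single arrays moved more for some genes. With blocks centred, odd was at -0.04, -0.22, -0.09 and -0.53 on S3 arrays 1 to 4. amos was at 0.18, -0.01, -0.21 and 0.36, and Atxn7 at 0.20, 0.49, 0.17 and 0.23. Of the lists of partners, 64 other genes were measured on the S3 design and limma called 0 of them, with 0 at an unadjusted p under 0.05. Over all genes limma called 3 of 6762, or 0.0444%, and 417 of the 6762 had an unadjusted p under 0.05. With blocks centred it again called 0 of the 64, with 1 at an unadjusted p under 0.05. Of all 6762 genes it then called 0, with 643 at an unadjusted p under 0.05. The medians of the 64 were -0.04 and -0.05 in these settings. With array medians centred the lowest of the 64 was the Brahma remodeller gene brm at -0.55 ± 0.75 and the highest was Cdk7 at 0.51 ± 0.84 (SD, n = 4 each). On the S3 design 7 TFIIH genes, 8 SAGA genes and 4 NuRD genes were among these, and none was called.

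The labelled tissue could not be checked, since a ratio of 2 channels does not show which tissue the RNA came from. In addition, none of the germline or follicle cell marker genes on the fixed lists was measured on the ovary design. Of markers of other tissues on the ovary arrays, muscle had 3 measured genes from -0.67 to -0.34, fat body 2 at -0.42 and -0.04, neurons 2 at -0.67 and 0.70, and hemocytes 2 at -0.55 and 1.42. The largest of these was Pxn, a peroxidase of the extracellular matrix made by hemocytes, at 1.65 and 1.20 (limma adjusted p = 8.88e-06), and it was called after row centring too, at 0.80 (limma adjusted p = 0.0119). Tm2 of muscle at -0.67 and nSyb and futsch of neurons at -0.67 and 0.70 were called as well. Of these nSyb was called after row centring, at -1.23, and so then was the hemocyte gene NimC1, at -0.62. Such calls were common over the design, at 39.0% of all genes and 25.9% after row centring. The part of these other tissues in the ratios of the 7 genes was not tested. In ovary tissue, fewer cells of a type and less RNA per cell cannot be told apart.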

How the data were processed

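The deposited tables hold a log ratio per spot and array, read here as log2. The authors' background correction, normalisation and choice of numerator are not given in the sources used here, so scale, centring and direction stay unknown. Medians of the deposited log2 values were 0.11 and 0.06 for ovary arrays 1 and 2 and 0.08, -0.02, 0.06 and 0.18 for S3 arrays 1 to 4. Genes were assigned to spots from the platform's annotation and given current Release 6 symbols by Entrez number (all 2377 ovary genes, 6700 of 6793 S3 genes); 5666 ovary spots had 1 gene, 152 several and 11078 none, and 15116, 102 and 12430 on the S3 design. No coordinates are given, since no build belongs to the values. Arrays were centred on their medians, spots of a gene averaged, and means tested against 0, two-sided, with limma 3.58.1 in R 4.3.3 (lmFit, eBayes; Benjamini-Hochberg over all genes of the group, threshold 0.05), ovary and S3 apart. With 1 residual degree of freedom per ovary gene, limma shares the spread over genes. With array medians centred its prior degrees of freedom were infinite, so all ovary genes got the same spread. A gene's own SD then did not enter its p. With print blocks and rows centred the prior degrees of freedom were 11.9. The test was tested on simulated data. Genes, partner lists and settings were chosen with earlier results of these data known. Named are the 7 genes, up to 4 members per list and design with the smallest p (some are left out), and the 2 nearest genes of each. Python 3.11.15, pandas 2.3.3 and matplotlib 3.10.9 drew the plots. Alternatives were other centrings, medians over spots, equal scale, array 2 turned, robust eBayes, spots in place of genes, a joint fit, and each array left out.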

Additional observations from a re-analysis of the deposited data

How the results depend on the processing

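The ovary means kept their sign under each alternative except with array 2 turned, which sets the 2 arrays against each other: amos was then at 0.10 and woc at 0.87, both reversed, odd at -0.61, Sox21b at 0.17, simj at 0.21, Atxn7 at 0.40 and Tfb1 at 0.20. Row centring within blocks gave odd -0.55, amos -0.78, Sox21b 2.10, simj 1.41, Atxn7 1.13 and Tfb1 1.14, and row numbers pooled over blocks, chosen after seeing the data, gave amos -0.76 and simj 1.39. Blocks alone gave amos -1.34. No centring, medians over spots and equal scale moved the 7 means by less than their SD. Leaving out an array leaves the value of the other, which for woc was -0.66 or -2.41 and for odd -0.97 or -2.18, against means of -1.54 and -1.57. The 926 ovary calls became 615 with row centring, 270 in a joint fit with S3 over 1816 genes on both designs, 5040 of 16896 spots when spots replaced genes, and 0 with array 2 turned; in the joint fit, leaving out an ovary array gave 0 to 1. Without centring the ovary split was 559 positive and 284 negative, against 497 and 429. The 3 S3 calls became 5 without centring, 8 with robust eBayes, and 0 with blocks centred, with blocks centred and array 2 turned, with array 2 turned, with equal scale and with spots; leaving out an S3 array gave 0 to 8. The S3 means of odd, amos and Atxn7 kept sign and stayed uncalled in all 30 alternative values. Row centring took the ovary calls among other members of the TFIIH, SAGA and NuRD lists to 0 each, and among Polycomb and related genes to 1, where 2 others had been called before. The cause was not tested. No paired analysis was possible because S3 and ovary arrays, which share replicate numbers, are of different designs and are not compared by a test. Spot brightness was not used here, so what it limits is unknown.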

Other observations

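Polycomb and related chromatin genes, a list fixed with earlier results of these data known, had 4 measured members on the ovary arrays. Of these, 0 were called positive and 2 negative, beside 20.9% positive and 18.0% negative of all genes (39.0% on either side). Asx, a Polycomb group gene whose product helps to remove ubiquitin from histone H2A in the fly, was at -0.92 and -0.91 on arrays 1 and 2 (limma adjusted p = 0.00534), and Pc, which reads a methyl mark on histone H3, was at -0.64 and -0.97 (limma adjusted p = 0.0141). After print blocks and rows were centred they were at -0.28 and -0.16 and were not called (limma adjusted p of 0.341 and 0.647). Scm, which binds Polycomb complexes, was then called at 0.77 and 0.85 (limma adjusted p = 0.00846), while it had been at 0.44 (limma adjusted p = 0.183). Of all genes 14.7% were called positive and 11.1% negative after row centring. The called genes of this list thus changed wholly with row centring. TfIIS and Taf3, which were named for their small p, were called in both settings.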
